A study of Mus musculus with 4 samples.

Results

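Expression of 10 genes that encode enzymes of eicosanoid synthesis was followed in mouse peritoneal macrophages, out of 16403 genes listed in at least 1 of 4 RNA-sequencing libraries. The members were taken by gene symbol: Alox15, Alox5, Alox5ap, Ltc4s, Lta4h, Ptgs1, Ptgs2, Ptges, Hpgds and Tbxas1. No rule on their values was used, but they were chosen with earlier results of these data known. All of them were listed in all 4 libraries. The macrophages were elicited in C57BL/6 mice with 4% thioglycolate injected into the peritoneum, were collected after 4 days, adhered for 4 h and were starved in 0.5% serum. Cells were wild-type or TIF1a-/-, where TIF1a is the other name of Trim24, and each genotype was sampled without treatment and after 6 h with mouse IL-4 at 20 ng/mL, a cytokine that drives macrophages to the alternatively activated (M2) state. The knockout rests on LysM-Cre acting on a floxed Trim24 gene, so that deletion is limited to myeloid cells and depends on the activity of the lysozyme M promoter, and the study states wild-type littermates as controls. The mice were 6 to 8 weeks old by the study's methods. How many mice went into a library is not given in the sources used here.

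Each group holds 1 library. There is thus no replicate to check a difference against, and the tests on reads set library against library rather than condition against condition. The 4 libraries held between 11026033 and 11250099 expected reads, the reads that the authors' program assigned to genes, and 3 reads, the smallest number taken as a detectable level, corresponded to 0.267 to 0.272 CPM (counts scaled by library total). Trim24 itself, at 2.55 FPKM in untreated and 1.48 FPKM in IL-4-treated wild-type cells, was at 0.06 and 0.14 FPKM in the respective knockout libraries, which goes with their labels. FPKM is the number of fragments scaled by transcript length and library total, and lets the levels of different genes be compared. All 6 macrophage markers examined (Adgre1, Cd68, Csf1r, Itgam, Mertk and Fcgr1) were present in every library, with a summed level of 3526 to 3926 FPKM. Most of this sum was Cd68 (3005 to 3465 FPKM), and the lowest marker, Fcgr1, was at 4.99 to 8.90 FPKM. Single markers thus contrast less than the sums: the fibroblast gene Dcn was at 7.93 to 14.4 FPKM. Sums for other cells were lower. They ran from 2.59 to 5.99 FPKM over 6 mast cell genes, from 1.44 to 2.47 over 5 eosinophil genes and from 0.08 to 0.33 over 4 platelet genes. The range was 15.1 to 18.7 FPKM over 4 genes of resident peritoneal macrophages and 15.1 to 29.2 over 3 fibroblast genes. Sums over the other lists reached 11.3 FPKM for neutrophils (6 genes), 6.52 for B cells (5 genes), 1.35 for T cells (4 genes), 1.21 for dendritic cells (4 genes) and 2.12 for mesothelial cells (3 genes). The eosinophil gene Epx, the mast cell gene Fcer1a, the neutrophil genes Ly6g, S100a9 and Retnlg, the T cell gene Trac and the platelet genes Gp9 and Ppbp were at 0 throughout. In such bulk libraries, fewer cells of a type and less RNA per cell cannot be told apart.

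Eicosanoids are oxygenated lipids made from arachidonic acid, which phospholipases release from membranes. Cyclooxygenases, encoded by Ptgs1 and Ptgs2, turn it into prostaglandin H, and terminal synthases convert this intermediate further: Tbxas1 to thromboxane, Hpgds to prostaglandin D and Ptges to prostaglandin E. In the leukotriene arm, the lipoxygenase Alox5 works with its activating membrane protein Alox5ap, after which Lta4h makes leukotriene B and Ltc4s makes the cysteinyl leukotrienes. Alox15 is a separate lipoxygenase of macrophages and eosinophils that oxygenates polyunsaturated fatty acids and is a textbook target of IL-4 signalling.

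The upstream sequence of the members whose level changed with IL-4 in both genotypes is shown first, since these genes carry the main result. The sequences are those of RefSeq on GRCm38.p6, which has entries for 8 of the 10 members and none for Alox15 or Alox5ap. Each is the 250 bases before a start site, read 5′ to 3′ on the strand of the gene, with matches to any of 4 searched motifs in capitals. The motifs, searched on both strands, were TTC and GAA with 4 bases of any kind between them (the palindrome bound by STAT6, the transcription factor that IL-4 activates), the same with 3 bases between them (the spacing of other STAT proteins), GAGGAA (the core of sites for the macrophage factor PU.1) and TATAAA (the TATA box). Neighbouring matches can run together in 1 stretch of capitals. All 3 windows lie inside the outermost span that RefSeq gives these genes, before an inner start site.
Ptgs1 (chr2:36230176-36230425, plus strand): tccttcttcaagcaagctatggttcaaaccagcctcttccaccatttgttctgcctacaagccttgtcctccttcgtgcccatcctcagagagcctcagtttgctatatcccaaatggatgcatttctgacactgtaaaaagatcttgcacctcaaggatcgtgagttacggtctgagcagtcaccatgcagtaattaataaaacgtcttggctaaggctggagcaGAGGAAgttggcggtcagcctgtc
Tbxas1 (chr6:38918736-38918985, plus strand): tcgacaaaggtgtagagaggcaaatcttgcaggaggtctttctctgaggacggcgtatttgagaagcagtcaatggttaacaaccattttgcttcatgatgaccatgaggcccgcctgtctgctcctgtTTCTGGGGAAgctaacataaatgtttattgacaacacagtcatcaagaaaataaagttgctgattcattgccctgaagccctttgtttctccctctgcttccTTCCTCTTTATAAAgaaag
Hpgds (chr6:65144731-65144980, minus strand): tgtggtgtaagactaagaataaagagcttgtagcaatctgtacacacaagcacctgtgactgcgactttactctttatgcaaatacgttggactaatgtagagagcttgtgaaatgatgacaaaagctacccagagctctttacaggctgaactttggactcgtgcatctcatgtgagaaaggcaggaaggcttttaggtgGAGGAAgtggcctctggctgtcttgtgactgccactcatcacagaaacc

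The STAT6-type palindrome was found in the Tbxas1 window, as TTCTGGGGAA beginning 121 bases before the start, and in that of Ptges as TTCAAAAGAA beginning 197 bases before it, that is in 2 of 8 member windows against 5.85% of the 32851 RefSeq windows of this length. GAGGAA or its complement was found in 7 of the 8 (the exception was Ltc4s), against 23.3% of all windows. In Ptgs1, Hpgds and Tbxas1 it began 24, 49 and 19 bases before the start. The palindrome with 3 bases between was found in none of the 8 against 7.02% of all windows, and TATAAA in 1, that of Tbxas1, against 12.4%. These matches describe letters in short windows, and binding was not measured here.

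The 10 genes covered a wide range of levels, and their order differed between untreated and IL-4-treated cells. In untreated wild-type macrophages Alox5ap stood highest at 107.7 FPKM, followed by Lta4h at 64.3, Hpgds at 45.5, Tbxas1 at 16.9, Ptgs1 at 8.63, Ltc4s at 3.04, Ptges at 1.17, Alox5 at 0.64, Ptgs2 at 0.42 and Alox15 at 0.15. Neighbours in this order were apart beyond their 95% counting intervals (exact Poisson, counting error only) down to Ptges, while Ptges and Alox5, Alox5 and Ptgs2, and Ptgs2 and Alox15 were not. In untreated knockout macrophages the first 8 places were the same, although Ltc4s and Ptges were not apart there. With IL-4 in wild-type cells, Tbxas1 moved to the third and Ptgs1 to the fourth place, and Hpgds fell behind both. With IL-4 in knockout cells these 3 genes kept that order, and Lta4h, at 78.7 FPKM, and Alox5ap, at 73.5 FPKM, exchanged the first 2 places without standing apart beyond counting error. The lowest members rested on few reads: Alox15 on 4 to 29 per library, Ptgs2 on 5 to 35, Alox5 on 10 to 20, Ltc4s on 10 to 22 and Ptges on 30 to 48.6.

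**Figure D1:**
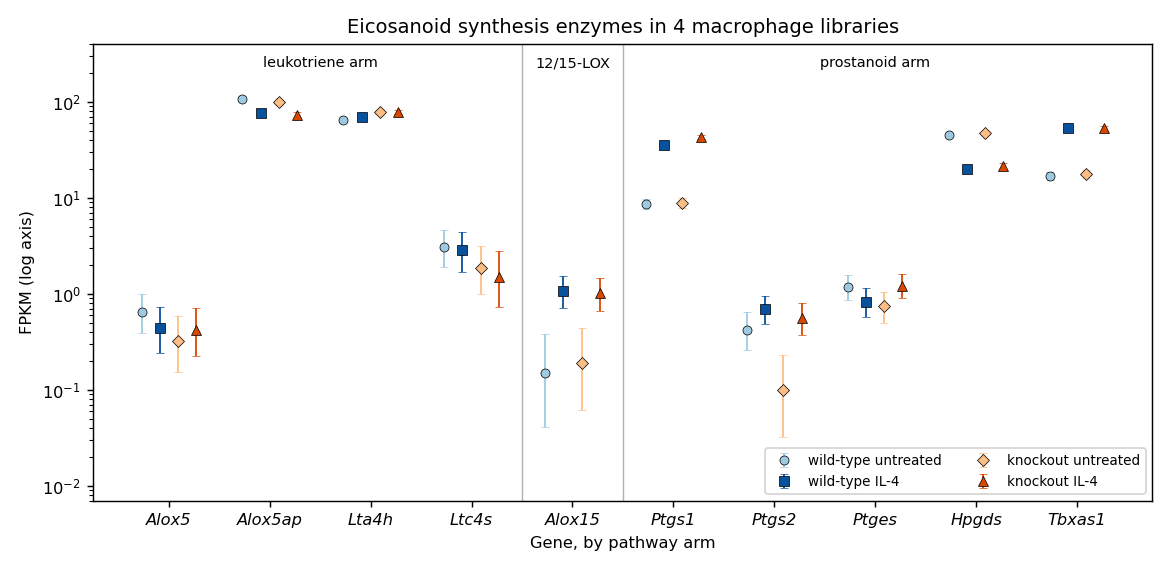
FPKM (log axis) of the 10 eicosanoid synthesis enzymes in the 4 libraries, grouped by pathway arm, where each point is 1 library and bars are 95% exact Poisson intervals that cover counting error only. Both IL-4 libraries lie above both untreated ones for Ptgs1 (35.8 and 42.8 against 8.63 and 8.86 FPKM), Tbxas1 and Alox15. The same holds for Ptgs2 (0.69 and 0.56 against 0.42 and 0.10 FPKM), with overlapping bars. They lie below both untreated ones for Hpgds and Alox5ap. How many of all genes separate in this way was not counted, so the separation is given only as a description of these libraries.

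To ask how IL-4 altered these enzymes, the treated and untreated libraries were compared within each genotype. In the prostanoid arm the constitutive cyclooxygenase and thromboxane synthase were higher and prostaglandin D synthase was lower with IL-4, in both genotypes. A gene was called at a fold above 1.5 on the log2(FPKM + 0.1) scale and a Benjamini-Hochberg adjusted p under 0.05 from Fisher's exact test on reads. By this rule 4 of the 10 members were called in wild-type cells, 3 higher (Alox15, Ptgs1 and Tbxas1) and 1 lower (Hpgds), where 12.8% of all 15593 genes tested were called, 4.91% higher and 7.89% lower. This excess of lower over higher genes (1230 against 766) was not seen after removal of a trend of the libraries over transcript length, with 817 lower and 809 higher. Knockout cells had 5 called members, 4 higher and 1 lower, namely the same 4 genes and Ptgs2, which was higher, where 9.33% of 15738 genes were called, 5.29% higher and 4.04% lower. The median log2 ratio of the 10 members was -0.0013 in wild-type cells and 0.47 in knockout cells, beside -0.03 and 0 over all genes tested. Over the 6 members with a mean of at least 1 FPKM it was -0.0013 and -0.13, so that its sign in knockout cells rests on members with few reads.

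Ptgs1 (chromosome 2, 36216742 to 36258593, GRCm38), the cyclooxygenase that most cells hold without stimulation, was listed at 8.63 FPKM in untreated and 35.8 FPKM in IL-4-treated wild-type macrophages. The knockout libraries held 8.86 and 42.8 FPKM. Both treated libraries were far above both untreated ones. The log2 ratio was 2.04 ± 0.10 (SE, counting error only) in wild-type cells (Fisher's exact test, adjusted p = 1.1e-124) and 2.26 ± 0.09 in knockout cells (adjusted p = 7.5e-168), a 4.11-fold and a 4.78-fold rise. In the ranking of all listed genes Ptgs1 moved from the top 39.8% to the top 13.7% in wild-type cells and from the top 38.9% to the top 11.4% in knockout cells.

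Tbxas1 (chromosome 6, 38864159 to 39084590) was listed at 16.9 FPKM without and 53.4 FPKM with IL-4 in wild-type cells, and at 17.8 and 53.2 FPKM in knockout cells. The pairs of untreated and of treated libraries were each close together, and the treated pair was 3.14-fold and 2.98-fold higher. The log2 ratios were 1.65 ± 0.09 (Fisher's exact test, adjusted p = 1.2e-95) and 1.57 ± 0.08 (adjusted p = 3.7e-88). Platelets, which are rich in thromboxane synthase, were represented by Itga2b and Gp1ba at no more than 0.20 FPKM each, and their part in the result was not tested. Transcripts annotated on the opposite strand overlap exons of Ptgs1 (Gm43621) and Tbxas1 (Gm42962), and it is not stated if counting used strand.

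Hpgds (chromosome 6, 65117293 to 65144981), the hematopoietic prostaglandin D synthase, fell with IL-4, in wild-type cells from 45.5 to 19.8 FPKM and in knockout cells from 46.8 to 21.4 FPKM. The log2 ratios were -1.20 ± 0.06 (Fisher's exact test, adjusted p = 5.6e-84) and -1.13 ± 0.06 (adjusted p = 2.6e-77), that is 2.30-fold and 2.18-fold lower. In untreated wild-type cells Hpgds stood among the top 10.3% of listed genes. Mast cells also express Hpgds, and the summed mast cell markers moved the same way (3.99 and 2.59 FPKM without and with IL-4 in wild-type cells, 5.99 and 4.58 FPKM in knockout cells). Their part in the result was not tested. Expected reads of Hpgds and Ptges were not whole numbers, so some of their reads also matched other genes.

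The opposite movement of Tbxas1 and Hpgds reversed the order of their transcript levels. Both synthases use the same substrate, but their protein and products were not measured in these libraries. Per length, the ratio of Tbxas1 to Hpgds was 0.372 (95% exact counting interval, 0.332 to 0.417) in untreated and 2.70 (2.46 to 2.96) in IL-4-treated wild-type macrophages. In the knockout it was 0.381 (0.340 to 0.425) and 2.49 (2.27 to 2.73). Hpgds was thus listed above Tbxas1 in both untreated libraries and below it in both treated ones.

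**Figure D2:**
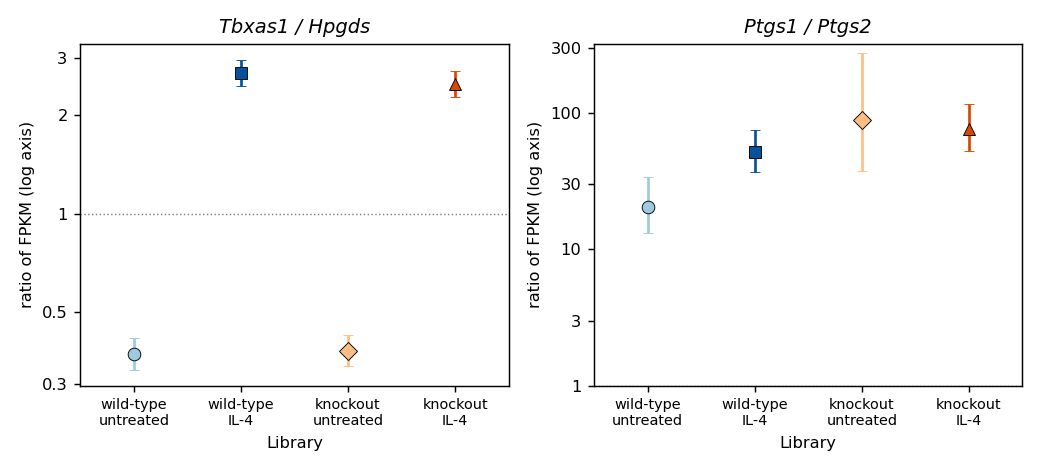
Ratio of FPKM within each library (log axes, points are single libraries, bars are 95% exact counting intervals, the dotted line at the left marks equal levels) for Tbxas1 over Hpgds at the left and Ptgs1 over Ptgs2 at the right. The first ratio is below 1 in both untreated libraries (0.372 and 0.381) and above 2 in both IL-4 libraries (2.70 and 2.49), and the second is above 20 in all 4.

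Ptgs2 (chromosome 1, 150100031 to 150108234), the inducible cyclooxygenase of inflamed macrophages, stayed low: 0.42 FPKM without and 0.69 FPKM with IL-4 in wild-type cells, and 0.10 and 0.56 FPKM in knockout cells. The untreated knockout library, with 5 reads, was the lowest of the 4, and the others held 21, 35 and 28 reads. Its log2 ratio was 0.60 ± 0.39 in wild-type cells, which was not called (Fisher's exact test, adjusted p = 0.19), and 1.72 ± 0.67 in knockout cells (adjusted p = 0.00028). The knockout call was lost at a pseudocount of 1 FPKM, where the log2 ratio was 0.50. Fibroblasts also express Ptgs2, and the summed fibroblast markers were likewise lowest in the untreated knockout library (15.1 FPKM, against 29.2, 24.6 and 26.5 in the order of the reads above). Their part in the result was not tested. Ptgs1 exceeded Ptgs2 per length by 20.5 times in untreated and 51.8 times in treated wild-type cells, and by 88.6 and 76.4 times in knockout cells.

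Ptges (chromosome 2, 30889471 to 30931020), the inducible prostaglandin E synthase, was listed at 1.17 and 0.83 FPKM in wild-type cells and at 0.74 and 1.20 FPKM in knockout cells, without and with IL-4. The log2 ratios had opposite signs, -0.45 ± 0.32 and 0.63 ± 0.33, and neither was called (Fisher's exact test, adjusted p = 0.26 and 0.11). The exact counting intervals of the ratio of reads, 0.434 to 1.10 and 1.02 to 2.67, each include a 1.5-fold change. Ptges, like the summed fibroblast markers, was lowest in the untreated knockout library. Among these markers Pdgfra was instead lowest in the treated knockout library (2.17 against 2.38 FPKM in the untreated one). Their part in the result was not tested.

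Alox15 (chromosome 11, 70344147 to 70390538) was scarce without IL-4, at 0.15 FPKM in wild-type cells and 0.19 FPKM in knockout cells, and reached 1.06 and 1.01 FPKM after treatment. There were 4 and 5 reads without and 29 and 27 reads with IL-4, and the groups did not overlap. The log2 ratios were 2.21 ± 0.73 (Fisher's exact test, adjusted p = 6.5e-05) and 1.94 ± 0.67 (adjusted p = 0.00045). As a ratio of reads scaled by library total the rise was 7.11-fold (95% exact counting interval, 2.50 to 27.8) in wild-type cells and 5.40-fold (2.05 to 18) in knockout cells. Resident peritoneal macrophages and eosinophils are known sources of Alox15. The summed markers of the former were 15.1 FPKM without and 18.7 FPKM with IL-4 in wild-type cells and 16.9 and 17.3 in knockout cells, and those of the latter were 2.36 and 1.44, and 2.47 and 1.85. Their part in the result was not tested.

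In the leukotriene arm no member was called in either genotype. Alox5ap (chromosome 5, 149265004 to 149288153) was listed at 107.7 FPKM without and 77.0 FPKM with IL-4 in wild-type cells, and at 98.8 and 73.5 FPKM in knockout cells. Both treated libraries were below both untreated ones. The log2 ratios of -0.48 ± 0.06 and -0.43 ± 0.07 passed the test on reads (Fisher's exact test, adjusted p = 5.1e-13 and 1.7e-09) but not the 1.5-fold threshold. With the trend over transcript length removed, the wild-type ratio was -0.64 and was called, and the knockout ratio was -0.46 and was not.

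Alox5 (chromosome 6, 116410071 to 116461178), the enzyme that Alox5ap serves, was listed at 0.64 and 0.44 FPKM in wild-type cells and at 0.32 and 0.42 FPKM in knockout cells, without and with IL-4. Alox5ap exceeded it per length by 168 to 309 times across the 4 libraries. With 10 to 20 reads per library, no IL-4 difference of Alox5 was detectable (log2 ratios of -0.45 ± 0.50 and 0.31 ± 0.59, Fisher's exact test, adjusted p = 0.51 and 0.77).

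Both enzymes that act on the product of Alox5 showed no IL-4 difference past the threshold. Lta4h (chromosome 10, 93453396 to 93484896) was listed at 64.3 and 68.8 FPKM in wild-type cells and at 77.8 and 78.7 FPKM in knockout cells. Its log2 ratios were 0.10 ± 0.05 and 0.02 ± 0.05, and the exact counting intervals of the ratio of reads, 0.997 to 1.15 and 0.948 to 1.08, leave no room for a 1.5-fold change between these libraries. Ltc4s (chromosome 11, 50236461 to 50238532) was listed at 3.04 and 2.83 FPKM in wild-type cells and at 1.86 and 1.51 FPKM in knockout cells, with intervals from 0.434 to 1.64 and from 0.302 to 1.90, which hold both no change and a 1.5-fold change. Lta4h stood above Ltc4s per length by 21.1 to 52.1 times.

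**Figure D3:**
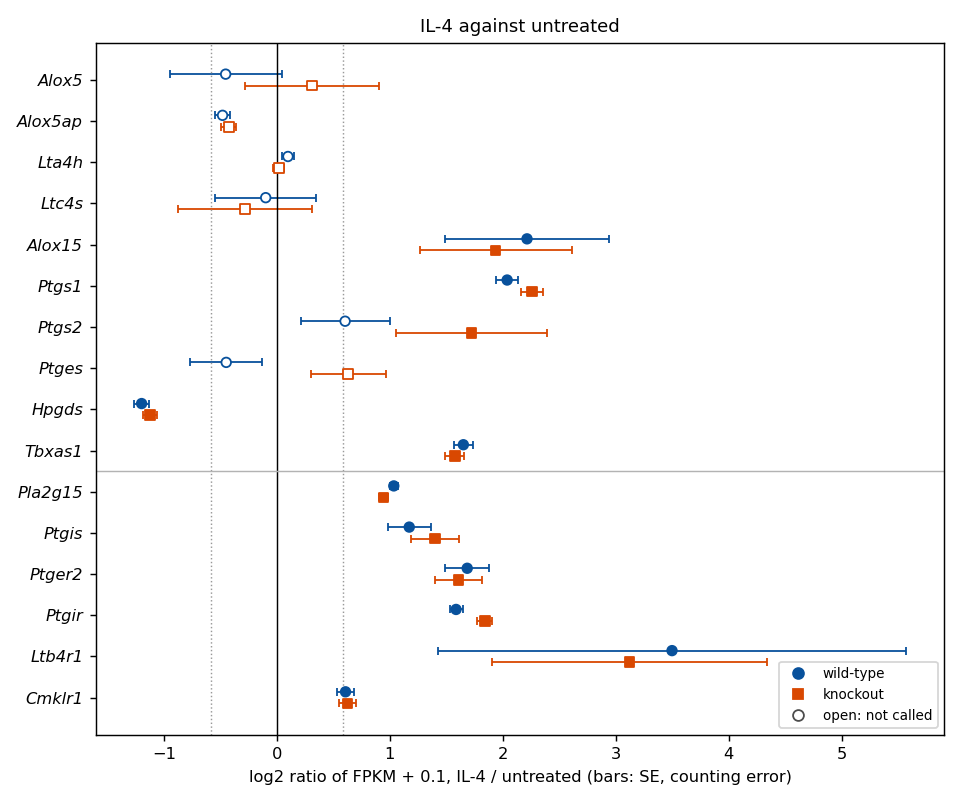
Log2 ratio of IL-4-treated to untreated macrophages on the log2(FPKM + 0.1) scale for the 10 members (above the line) and 6 further genes of the pathway (below it), in wild-type cells (circles) and the knockout (squares). Bars are standard errors from counting, filled symbols passed the call, dotted lines mark a fold of 1.5, and the wild-type point of Ltb4r1 depends on the pseudocount because the untreated library had no reads of it. Ptgs1, Tbxas1, Alox15 and Hpgds are filled in both genotypes, with Hpgds alone to the left, and Ptgs2 in knockout cells alone, a difference between genotypes that did not pass its own test.

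In a model of all 4 libraries in which genotype and treatment add up, 6 of the 10 members had an IL-4 effect by edgeR's quasi-likelihood test, 4 higher and 2 lower, where 25.3% of 11791 genes did at an adjusted p under 0.05, 12% higher and 13.3% lower. This fit has 1 residual degree of freedom and uses no fold threshold. Higher were Ptgs1 (log2 effect 2.17, adjusted p = 2.3e-09), Tbxas1 (1.63, adjusted p = 2.4e-08), Alox15 (2.60, adjusted p = 0.00069) and Ptgs2 (1.31, adjusted p = 0.03). Lower were Hpgds (-1.16, adjusted p = 3.8e-07) and Alox5ap (-0.44, adjusted p = 0.0027). The calls of Ptgs1, Tbxas1, Hpgds and Alox5ap held in all 6 other fits, among them DESeq2, that of Alox15 in 5 (DESeq2 gave an adjusted p of 0.077) and that of Ptgs2 in 4. The pair tests above count reads only: if libraries of a group were assumed to vary with a biological coefficient of variation of 0.2, edgeR's exact test left Alox15, Ptgs1 and Tbxas1 called in wild-type cells and Ptgs1 and Tbxas1 in knockout cells, and at 0.4 it left no member.

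Whether loss of Trim24 altered these enzymes was examined by comparing the genotypes within each treatment. Without IL-4, 1 of the 10 members was called, Ptgs2, which was lower in knockout cells, where 1.58% of 15623 genes were called and 0.742% were called lower. With IL-4 no member was called, where 3.81% of 15573 genes were, and by Fisher's exact test 2 members had an unadjusted p under 0.05, as had 28.5% of all genes. Over the members, the median log2 genotype ratio (knockout over wild-type) was -0.04 without and -0.03 with IL-4, beside -0.0038 and 0.02 over all genes. Both of these comparisons use the same libraries as the IL-4 comparisons.

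Ptgs2 had a log2 ratio of -1.38 ± 0.69 in untreated cells (0.10 FPKM in knockout cells against 0.42, Fisher's exact test, adjusted p = 0.04). It rested on 21 and 5 reads, and the ratio of reads was 0.238 with an exact counting interval of 0.0702 to 0.649. The call was lost at a pseudocount of 1 FPKM, where the log2 ratio was -0.37, and with an assumed coefficient of variation of 0.2. Each of the 3 fibroblast markers was also lower in the untreated knockout library than in the untreated wild-type one (Col1a1 at 4.81 against 10.9, Dcn at 7.93 against 14.4 and Pdgfra at 2.38 against 3.91 FPKM), and their part in this call was not tested. With IL-4 the log2 ratio was -0.26 ± 0.36 (adjusted p = 0.75).

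Lta4h and Ptgs1 differed between genotypes by more than counting error but by less than 1.5-fold. Lta4h was higher in knockout cells in both treatments, at 77.8 against 64.3 FPKM without IL-4 (log2 ratio 0.28 ± 0.05, Fisher's exact test, adjusted p = 4.5e-06) and at 78.7 against 68.8 FPKM with IL-4 (0.19 ± 0.05, adjusted p = 0.00093). With IL-4 Ptgs1 was at 42.8 FPKM in knockout cells against 35.8 (0.26 ± 0.06, adjusted p = 0.0001), and without it at 8.86 against 8.63 FPKM (0.04 ± 0.12, adjusted p = 0.99).

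For Tbxas1 and Hpgds the genotypes lay close together. The ratio of Tbxas1 reads, knockout over wild-type, was 1.05 (95% exact counting interval, 0.910 to 1.22) without and 0.996 (0.918 to 1.08) with IL-4, and that of Hpgds was 1.03 (0.961 to 1.10) and 1.08 (0.976 to 1.20), all inside 1.5-fold. Alox5ap had ratios of 0.919 (0.846 to 0.999) and 0.956 (0.868 to 1.05). Ltc4s was lower in knockout cells in both treatments, with ratios of 0.591 (0.274 to 1.23) and 0.537 (0.223 to 1.21), which were not called (Fisher's exact test, adjusted p = 0.60 and 0.36). Mast cells also express Ltc4s. The summed mast cell markers were higher in knockout cells, 5.99 against 3.99 FPKM without and 4.58 against 2.59 FPKM with IL-4. Their part in the result was not tested.

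**Figure D4:**
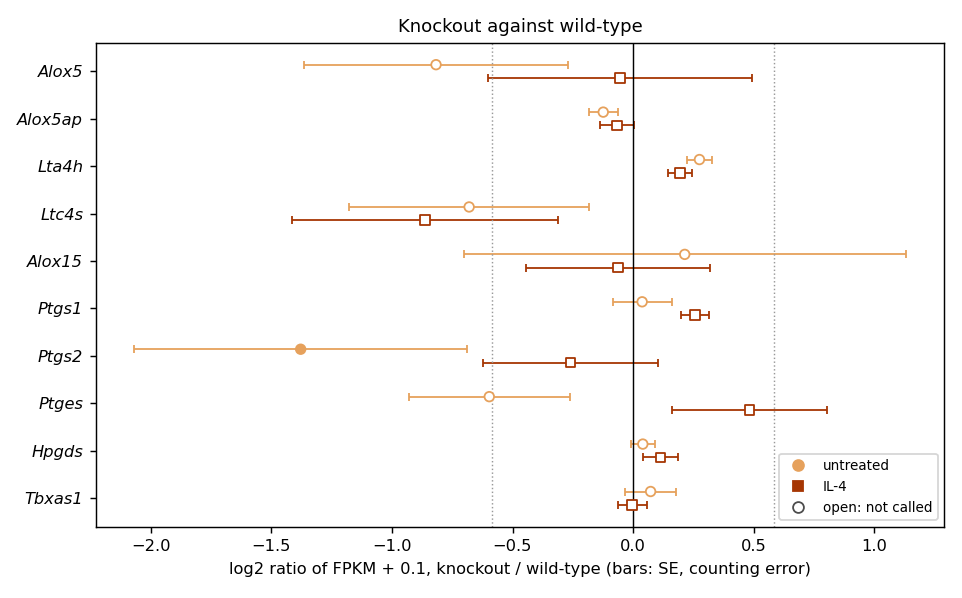
Log2 ratio of knockout to wild-type macrophages on the log2(FPKM + 0.1) scale for the 10 members, untreated (circles) and with IL-4 (squares), with standard errors from counting as bars, filled symbols for calls and dotted lines at a fold of 1.5. Ptgs2 without IL-4 (-1.38) is the only filled symbol, and the points of Ptgs1, Hpgds, Tbxas1, Lta4h and Alox5ap lie between the dotted lines.

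In the additive model no member had a genotype effect at an adjusted p under 0.05 by edgeR's quasi-likelihood test, where 1.66% of 11791 genes did. At an unadjusted p under 0.05 (14.2% of all genes) there was 1 member, Lta4h, with a log2 effect of 0.23 (adjusted p = 0.24). DESeq2 called none, limma on log2(FPKM + 0.1) called Ltc4s (-0.77, adjusted p = 0.047), and edgeR with the length trend removed called Lta4h (0.28, adjusted p = 0.005).

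The difference between the IL-4 responses, knockout minus wild-type, was then tested directly with an exact test on the reads of all 4 libraries. No member was called, where 1.75% of 16371 genes were, and 2 members had an unadjusted p under 0.05, as had 16.6% of all genes. These were Ptges, with a log2 difference of 1.08 ± 0.46 (approximate 95% counting interval, 0.17 to 1.99, exact test, adjusted p = 0.11), and Ptgs2, with 1.12 ± 0.78 (-0.41 to 2.65, adjusted p = 0.22). For Ptgs1 the difference was 0.22 (-0.04 to 0.48), for Tbxas1 -0.08 (-0.31 to 0.16) and for Hpgds 0.07 (-0.10 to 0.25), so that between these libraries the responses of the 3 genes were within 1.5-fold of each other. For Alox15 the interval, from -2.23 to 1.67, was too wide to say.

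A list of 60 further genes of eicosanoid metabolism and signalling was examined alongside, of which 57 had reads in at least 1 library. With IL-4 in wild-type cells 7 of 55 tested were called, all higher, and in knockout cells 8 of 53 were called, 7 higher and 1 lower, where 12.8% and 9.33% of all genes were called, so that the wild-type count is near that over all genes. The median log2 ratio of the list was 0.02 in each genotype, beside -0.03 and 0 over all genes. Called higher in both genotypes were 6 genes, of which 4 encode receptors: Ptgir, Ptger2, Ltb4r1 and Cmklr1. The other 2 were Ptgis and Pla2g15. Of the list's receptors 5 of 15 tested were called higher in wild-type and 4 of 12 in knockout cells, where 4.91% and 5.29% of all genes were called higher. Not all receptors rose. Ptger1 was listed at 28.15 FPKM without and 18.85 FPKM with IL-4 in wild-type cells, and at 31.31 and 24.31 FPKM in knockout cells. Ptger4 was at 3.25 and 2.46 FPKM, and at 4.09 and 2.82 FPKM, and neither gene was called. The additive model gave 6 of 9 receptors an IL-4 effect, 4 higher and 2 lower, where 12% and 13.3% of all genes were. In the additive model 13 of 37 list genes had an IL-4 effect by edgeR's quasi-likelihood test, 9 higher and 4 lower, where 25.3% of all genes had one. None had a genotype effect, where 1.66% of all genes had one, and 5 of the 37 were at an unadjusted p under 0.05, where 14.2% of all genes were.

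Ptgir, the prostacyclin receptor, was listed in wild-type cells at 22.8 FPKM without and 68.6 FPKM with IL-4. The knockout libraries held 16.8 and 60.2 FPKM. The log2 ratios were 1.59 ± 0.06 and 1.84 ± 0.07 (Fisher's exact test, adjusted p = 4.4e-195 and 2.0e-209). Ptger2, a receptor of prostaglandin E, rose from 1.67 to 5.59 FPKM in wild-type and from 1.53 to 4.87 FPKM in knockout cells. Its log2 ratios were 1.68 ± 0.20 and 1.61 ± 0.21. Both receptors signal through cyclic AMP.

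Ltb4r1, the high-affinity receptor of leukotriene B, was without reads in untreated wild-type cells and had 16 after treatment, at least 5.23-fold higher against a floor of 3 reads per library. In the knockout it had 1 read without and 21 with IL-4 (Fisher's exact test, adjusted p = 4.7e-05), a ratio whose exact counting interval ran from 3.38 to 869. Cmklr1, a receptor of chemerin that has also been described as a receptor of the lipid mediator resolvin E, rose from 21.3 to 32.4 FPKM in wild-type and from 20.3 to 31.3 FPKM in knockout cells, just past the threshold at log2 ratios of 0.61 ± 0.07 and 0.63 ± 0.07.

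Ptgis, the prostacyclin synthase and thus the enzyme that makes the ligand of Ptgir, rose in wild-type cells from 4.26 to 9.72 FPKM and in knockout cells from 3.17 to 8.52 FPKM (log2 ratios of 1.17 ± 0.19 and 1.40 ± 0.22). Stromal cells also express Ptgis. The 3 fibroblast markers summed to 29.2 FPKM without and 24.6 FPKM with IL-4 in wild-type cells, and to 15.1 and 26.5 FPKM in knockout cells, and their part in the result was not tested. The higher sum of the treated knockout library came mainly from Col1a1 (4.81 FPKM without and 15.4 with IL-4), while Dcn was at 7.93 and 8.94 and Pdgfra at 2.38 and 2.17 FPKM. Pla2g15, a lysosomal phospholipase, rose from 72.4 to 148 FPKM in wild-type and from 78.4 to 151 FPKM in knockout cells, with log2 ratios of 1.03 ± 0.04 and 0.94 ± 0.04.

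Genes called in 1 genotype only were chosen for naming with their values in view. In the wild-type this was Cysltr2, a receptor of cysteinyl leukotrienes, which rose from 0.36 to 1.28 FPKM. Its knockout values were 0.66 and 0.83 FPKM. In the knockout they were Pla2g4a and Pla2g4b. Pla2g4a, the cytosolic phospholipase that releases arachidonic acid, rose from 3.90 to 6.58 FPKM. In wild-type cells it also rose, from 4.21 to 5.79 FPKM, but by less than 1.5-fold. Pla2g4b was listed at 0.37 FPKM in the untreated knockout library and at 0 in the other 3. No IL-4 response of a list gene differed between the genotypes by the rule used for calls, while by the exact test 5 of 57 had an unadjusted p under 0.05, where 16.6% of all genes had one and 1.75% were called. Among them was Ptgir, with a log2 difference of 0.25 ± 0.09 (exact test, adjusted p = 0.042), under 1.5-fold. In none of the 60 genes did a genotype call repeat in both treatments: 1 gene, Pla2g4b, was called without IL-4 (1 of 54 tested, where 1.58% of all genes were called) and 0 of 52 with IL-4 (3.81% of all genes). With IL-4, 11 of the 52 had an unadjusted p under 0.05 by Fisher's exact test, where 28.5% of all genes had one. The 15.9 expected reads of Pla2g4b were not a whole number, so they rest partly on reads shared with other genes.

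Among the members with a mean of at least 1 FPKM, Ptgs1 had the widest range over the 4 libraries, 2.30 on the log2(FPKM + 0.1) scale. Of 10532 genes compared, the 3 whose centred log2 profile lay nearest were Man1a, Gpc1 and Tnip3, with mean absolute log2 differences of 0.044, 0.066 and 0.071 over 4 libraries. Man1a was listed at 15.3, 60.2, 16 and 71.4 FPKM in the 4 libraries, wild-type before knockout and untreated before treated. With 4 points of which each is 1 library, this likeness is a description.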

How the data were processed

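Total RNA of 4 macrophage libraries was sequenced on an Illumina HiSeq instrument, mapped by the authors to GRCm38 (mm10) with Bowtie and quantified with RSEM. Versions, and whether counting used strand, are not given in the sources used here. The deposited expected counts are RSEM's estimates of reads per gene, of which 22.2% to 22.8% were not whole because reads that match several genes are divided. The authors' FPKM values scale these by effective transcript length and library total. Unlisted genes were set to 0. GENCODE M21 places exons of an antisense or unassigned transcript on the opposite strand of Alox5ap, Ltc4s, Ptgs1 and Tbxas1. If counting did not use strand, reads of these pairs cannot be told apart. Of 16403 gene IDs, 16365 matched a RefSeq symbol of GRCm38.p6.

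Groups followed the genotype and treatment in the labels. After rounding of expected counts, Fisher's exact test (two-sided) was run per gene for each pair of libraries against the library totals, with Benjamini-Hochberg adjustment over all genes with a read. Calls required an adjusted p below 0.05 together with a fold above 1.5, the thresholds in the study's methods. For its list of IL-4-regulated genes the study states a larger fold and a looser false discovery rate. Folds were taken on log2(FPKM + 0.1), a scale that understates changes of low genes. Standard errors, on the log2 scale, take the variance of a log count as the reciprocal of the count plus 0.5. The difference of responses was tested with Fisher's noncentral hypergeometric distribution. Additive effects were fitted with edgeR 4.0.16 (TMM, filterByExpr, glmQLFTest), with DESeq2 1.42.0 and limma 3.58.1 as alternatives, in R 4.3.3, and the rest in Python 3.11.15 with SciPy 1.17.1. Fragments carry no molecular identifiers and may be copies of 1 molecule, so that intervals and floors include counting error alone. The length trend was a lowess fit, with fraction 0.3, to log2 FPKM of a library minus the 4-library mean, against log2 transcript length, over genes of at least 200 bases and a mean of 1 FPKM. On simulated counts with 200 changed genes the pair test (16403 genes, simulating IL-4 in the wild-type) recovered 199 with 3 false calls, the response difference (16403 genes) 193 with 3, and the additive fit (11749 genes, simulating the IL-4 effect) 200 with 24. The simulated counts held counting error only, and changed genes had more reads than the lowest members. For the additive fit IL-4 acted alike in both genotypes. These rates therefore do not carry over to variation between animals or to members with few reads.

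The members, lists, motifs and tests were chosen with earlier results of these data known, so that no adjustment over a list alone is given. Besides the members and Trim24, genes of the pathway list were named if called in one direction in both IL-4 pairs or both genotype pairs, or for the response difference, and for the member of widest range the 3 genes of nearest centred profile.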

Additional observations from a re-analysis of the deposited data

How the results depend on the processing

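No paired analysis was possible because each group holds 1 library, and for the same reason leaving out a library was not an option. The depth limits Alox15, Alox5, Ltc4s, Ptgs2 and Ptges, which had at most 48.6 reads in a library. Of 893 values of single genes under the alternatives, 831 kept their direction and side of the threshold, 47 lost a call, 5 gained one and 10 changed sign; none of the 10 belonged to a called value.

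IL-4 in the wild-type: at a coefficient of variation set to 0.4 the called members went from 4 to 0, the called list genes from 7 to 3 (at 0.2) and 0 (at 0.4), and all called genes from 1996 to 861 (fold above 2), 258 (0.2) and 45 (0.4). IL-4 in the knockout: members went from 5 to 3 with genes under 1 FPKM left out, 2 (0.2) and 0 (0.4), list genes from 8 to 5 (fold above 2), 4 (0.2) and 0 (0.4), and all genes from 1468 to 710 (fold above 2), 272 (0.2) and 33 (0.4). Knockout against wild-type, untreated: the 1 member (Ptgs2) and the 1 list gene (Pla2g4b) went to 0 at a pseudocount of 1, without genes under 1 FPKM and at both 0.2 and 0.4, and all genes from 247 to 155 (pseudocount of 1), 127 (fold above 2), 15 (0.2) and 7 (0.4). Knockout against wild-type with IL-4: all genes went from 593 to 321 (pseudocount of 1), 171 (fold above 2), 21 (0.2), 11 (0.4) and 316 (length trend removed). Response difference: all genes went from 287 to 152 (pseudocount of 1), 90 (fold above 2) and 93 (length trend removed).

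Additive IL-4 effect: list genes went from 13 of 37 to 8 (all genes with a read) and 6 (DESeq2), and all genes from 2987 to 1675 and 1223. Additive genotype effect: members went from 0 to 1 with the length trend removed (Lta4h) and 1 with limma (Ltc4s), list genes from 0 to 1 (upper-quartile scaling) and 3 (length trend removed), and all genes from 196 to 494 (upper-quartile scaling), 330 (DESeq2's size factors in edgeR), 24 (all genes with a read), 624 (length trend removed), 65 (DESeq2) and 393 (limma).

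Removal of the length trend turned the sign of Lta4h for IL-4 in the knockout (to -0.0145), of Alox5ap (to 0.0896) and Tbxas1 (to 0.056) for genotype with IL-4, and of Alox15 (to 0.021) and Alox5ap (to 0.0013) for the additive genotype effect. That effect turned for Alox15 also with DESeq2 (0.085) and limma (0.075), and for Tbxas1 with upper-quartile scaling (-0.0097). The response difference turned for Ltb4r1 at a pseudocount of 1 (0.13) and for Cmklr1 with TMM scaling (-0.016). A higher fold and an added variance lower counts by construction. Genes left out of a test cannot be called, but fewer tests also relax the adjustment. The cause of the other changes was not tested.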
